A study of Mus musculus with 6 samples.

Results

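The interleukin-1 (IL-1) ligands, their natural antagonist and the IL-1 receptor chains were examined in eosinophils of the mouse small intestine. The group holds 6 genes, Il1rn, Il1b, Il1a, Il1r2, Il1rap and Il1r1, out of 23283 gene symbols in the deposited tables. They were taken by name, and the levels of all transcripts listed under a name were added within each library. Eosinophils from the small intestinal lamina propria of wild-type BALB/c mice were cultured for 4 hours with GM-CSF at 10 ng/ml (3 libraries) or left untreated (3 libraries). GM-CSF is a growth factor that prolongs the life of eosinophils and activates them. The labels leave unsaid if separate animals gave the cultures, and how the cells were purified, so p-values measure the spread between these cultures, which may be technical.

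IL-1 alpha and IL-1 beta are the agonists of the family. Both bind the signalling receptor IL-1R1, which then recruits the accessory protein IL-1RAcP and passes the signal through MyD88, IRAK kinases and TRAF6 to NF-kB. The system carries its own restraints: the receptor antagonist IL-1Ra, encoded by Il1rn, occupies IL-1R1 without recruiting the accessory protein, and IL-1R2 is a decoy that binds the agonists but has no signalling domain. In the gut, IL-1 beta is known for promoting T helper cells that make IL-17.

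Levels are given in FPKM, the fragments of a transcript divided by its length and by library size, a unit that allows genes to be set beside each other. The libraries rested on 0.820 to 1.32 gigabases of mapped sequence in the GM-CSF group and 0.917 to 0.974 in the untreated group, as read from the ratio of deposited coverage to FPKM. The eosinophil genes Siglecf (listed as Siglec5), Ccr3 and Adgre1 (listed as Emr1) averaged 170.4, 251.3 and 426.4 FPKM with GM-CSF and 170.1, 289.0 and 367.8 FPKM without, so these surface markers of the labelled cell type were present. The granule protein gene Prg2 was low, at 8.93 FPKM in GM-CSF and 8.85 FPKM in untreated libraries. Epx was low too, at 4.27 FPKM with GM-CSF and 6.62 FPKM without. Prg3, Ear1 and Ear2 were too low to be tested. They averaged 0.323, 0.271 and 0.0760 FPKM with GM-CSF and 0.238, 0.613 and 0.372 FPKM without. Of 10 eosinophil markers 7 were tested, of which 0 rose and 3 fell (Epx, Il5ra and Alox15), beside 14.2% of all tested genes called lower. The summed levels were 960.2 to 1121 FPKM with GM-CSF and 1275 to 1433 FPKM without. Alox15 differed most among these genes, at 157.0 FPKM with GM-CSF and 460.6 FPKM without, whereas Siglecf, Ccr3 and Adgre1 did not pass the test. In bulk RNA, fewer cells of a type and less RNA per cell cannot be told apart. Changes were tested with limma on log2(FPKM + 1) over the 10106 genes whose mean reached 1 FPKM, and a call means a Benjamini-Hochberg adjusted p under 0.05.

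In these cells the antagonist and both agonists were abundant, the decoy receptor was well expressed, and the signalling receptor was close to absent. The order of the levels was Il1rn, Il1b, Il1a, Il1r2, Il1rap and Il1r1 in all 6 libraries, and no neighbours in this order overlapped within a group. Il1rn ranked between 10 and 26 among all symbols of a library, Il1b between 29 and 55, Il1a between 103 and 173, and Il1r2 between 250 and 295. Il1rn, Il1b, Il1a and Il1rap rose with GM-CSF, their means standing 1.38 to 1.49 times those of untreated libraries, while Il1r2 did not pass the test and Il1r1 was too low to be tested. Of the 5 tested members, 4 were called higher in GM-CSF libraries, against 7.68% of all tested genes called higher and 21.9% called in either direction. The same 4 had groups that did not overlap, as had 39.2% of all tested genes, 13.2% with GM-CSF higher. For these 5 members the median log2 fold change was 0.46, beside -0.05 over all tested genes.

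**Figure D1:**
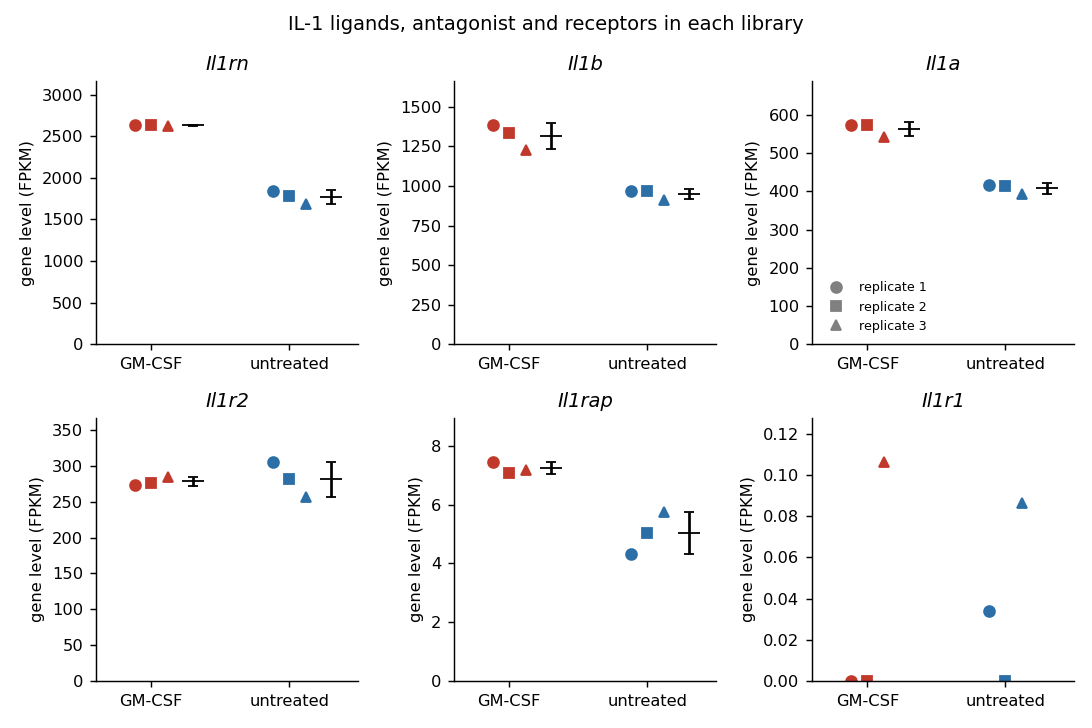
Level in FPKM of each of the 6 genes in each library (points, shaped by replicate number), with the mean and SD of 3 libraries beside them except for Il1r1, which is listed at 0 in several libraries. Each panel has its own axis starting at 0. The groups are apart for Il1rn, Il1b, Il1a and Il1rap and overlap for Il1r2 and Il1r1.

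Il1rn encodes the receptor antagonist and lies on chromosome 2 (24336860 to 24351491, GRCm38.p6). It measured 2634, 2637 and 2621 FPKM in GM-CSF replicates 1 to 3, against 1844, 1777 and 1687 FPKM in untreated replicates 1 to 3. The GM-CSF libraries all lay above the untreated ones, and they lay closer together (SD 8.63 FPKM with GM-CSF and 79.0 FPKM without, n = 3 each). The means stood in a ratio of 1.49, and the log2 fold change was 0.57 with SE 0.05 (95% interval 0.46 to 0.68, limma adjusted p = 0.000376). A log2 fold change at least this high was seen in 3.78% of tested genes. Il1rn made up 0.566% to 0.570% of the summed FPKM of the GM-CSF libraries and 0.356% to 0.394% of the untreated ones.

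The 3 deposited transcripts of Il1rn begin at different places and differ in their protein. The intracellular form begins at the upstream start (24336853 in GENCODE M21) and has 159 codons. The secreted form, with its signal peptide, begins at a downstream start (24345310) and has 178 codons. Another transcript begins close by (24345288) and has 162 codons. The intracellular form measured 1203, 905.4 and 1025 FPKM with GM-CSF, against 752.0, 483.6 and 499.9 FPKM without. The secreted form measured 934.9, 826.2 and 818.5 FPKM with GM-CSF, against 583.7, 521.9 and 558.2 FPKM without. Neither pair of groups overlapped, so these transcripts, 1 from each start region, were higher in every GM-CSF library. The transcript of 162 codons measured 496.3, 905.1 and 777.5 FPKM with GM-CSF and 508.8, 771.1 and 628.9 FPKM without, and these groups overlapped.

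The share of the secreted form in the gene's FPKM was 35.5%, 31.3% and 31.2% with GM-CSF and 31.6%, 29.4% and 33.1% without. That of the intracellular form was 45.7%, 34.3% and 39.1% with GM-CSF and 40.8%, 27.2% and 29.6% without. Both sets of shares overlapped between the groups. The transcripts share exons, and the intracellular and the 162-codon shares moved against each other from library to library, so how the reads were divided among them is uncertain.

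**Figure D2:**
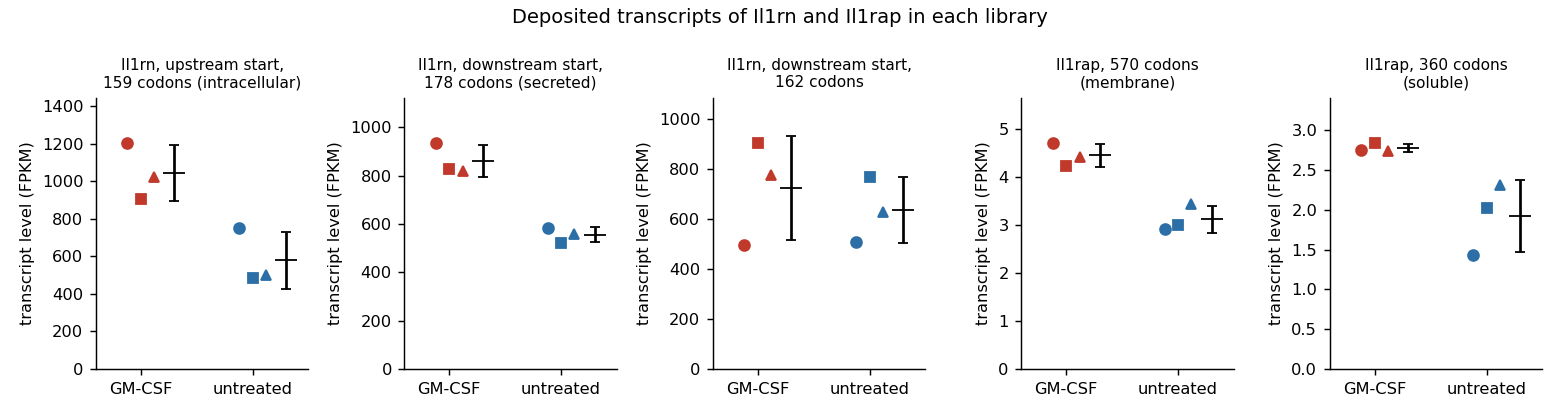
Level in FPKM of 3 deposited Il1rn transcripts and 2 Il1rap transcripts in each library (points, shaped by replicate number as circle, square and triangle for replicates 1 to 3), with mean and SD of 3 libraries. The groups are apart for each transcript shown except the Il1rn transcript of 162 codons.

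Il1b, the agonist that is made as an inactive precursor and cut by caspase-1, lies on chromosome 2 (129364569 to 129371164). It measured 1386, 1335 and 1228 FPKM with GM-CSF, against 969.0, 966.4 and 909.8 FPKM without. All 3 GM-CSF libraries lay above the untreated ones, with replicate 3 the lowest of each group. The means stood in a ratio of 1.39, a log2 fold change of 0.47 with SE 0.06 (95% interval 0.33 to 0.61), at a limma adjusted p of 0.00211.

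Il1a, the agonist whose precursor is already active, lies 54.4 kilobases from Il1b on the same chromosome (129299609 to 129310186). It measured 572.4, 573.8 and 541.5 FPKM with GM-CSF, against 416.7, 415.0 and 392.1 FPKM without. The groups did not overlap, and replicate 3 was again the lowest of each. The means stood in a ratio of 1.38, a log2 fold change of 0.46 with SE 0.04 (95% interval 0.36 to 0.57), at a limma adjusted p of 0.000750. Among all tested genes, 4.99% had a log2 fold change at least that of Il1b and 5.11% at least that of Il1a.

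For Il1b, Il1a and Il1rn, the 150 bases before start sites are shown from RefSeq's promoter table (GRCm38.p6), 5′ to 3′ on the strand of the gene. Capitals mark matches to TATAAA, the TATA box, or GAGGAA, the core letters bound by the myeloid factor PU.1.
Il1b, chr2:129371140-129371289, minus strand: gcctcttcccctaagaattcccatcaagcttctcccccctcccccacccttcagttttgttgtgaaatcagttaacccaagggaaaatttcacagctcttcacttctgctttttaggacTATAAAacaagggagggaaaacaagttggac
Il1a, chr2:129309973-129310122, minus strand: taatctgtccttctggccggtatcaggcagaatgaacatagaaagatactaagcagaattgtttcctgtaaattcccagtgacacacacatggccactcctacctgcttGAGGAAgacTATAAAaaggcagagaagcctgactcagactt
Il1rn upstream start (intracellular form), chr2:24336710-24336859, plus strand: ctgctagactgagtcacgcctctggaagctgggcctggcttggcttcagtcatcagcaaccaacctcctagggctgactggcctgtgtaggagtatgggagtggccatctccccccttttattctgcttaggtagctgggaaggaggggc
Il1rn downstream start region, chr2:24345141-24345290, plus strand: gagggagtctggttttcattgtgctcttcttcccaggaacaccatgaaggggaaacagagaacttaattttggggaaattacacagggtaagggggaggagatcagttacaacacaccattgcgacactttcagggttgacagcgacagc
Both agonist genes hold TATAAA at nearly the same place, its first base 31 bases before the start in Il1b and 32 in Il1a. Il1a also holds GAGGAA, beginning 41 bases before the start. Neither Il1rn window shown holds either motif. Whether these letters bear on the changes with GM-CSF was not tested. The windows searched ran from 250 bases before to 50 after each start, on both strands. TATAAA is present in 13.6% and GAGGAA in 28.3% of 32851 such windows in the table. The other motifs searched were for NF-kB a kappaB motif of GGGA and TTCC with any 2 bases between (present in 1.47% of windows), TTCNNNGAA for STAT factors (8.30%) and TTGCNNAA for C/EBP factors (10.8%), and no Il1rn, Il1b or Il1a window held them. Exact matches alone were sought, so sites with variant letters or farther from the start were not looked for. The remaining Il1rn window, just downstream and not shown, holds TATAAA on the opposite strand after its start. Outside the ligands, the Il1r2 window held a STAT match beginning 111 bases before the start site of that window. This start site (40086093) lies downstream of the start of the deposited Il1r2 transcript (40084698 in GENCODE M21). The match is therefore inside the gene, not before the start of the transcript measured. A C/EBP match was held by 1 of the 2 Il1r1 windows.

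Summed over its transcripts, the antagonist was above each agonist in FPKM in all 6 libraries. Taken singly, each of the 3 Il1rn transcripts was below Il1b in all 6 libraries, so the direction against Il1b turns there, while the intracellular and the secreted form were each above Il1a in all 6. The FPKM ratio of Il1rn to Il1b was 1.90, 1.97 and 2.13 in GM-CSF replicates 1 to 3, against 1.90, 1.84 and 1.85 in untreated replicates 1 to 3. The groups touched, since GM-CSF replicate 1 lay just under untreated replicate 1. The means were 2.00 ± 0.120 with GM-CSF and 1.87 ± 0.0339 without (SD, n = 3 each; exact two-sided permutation test on log2 ratios, p = 0.2).

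The ratio of Il1rn to Il1a was 4.60, 4.60 and 4.84 with GM-CSF, against 4.43, 4.28 and 4.30 without. Here every GM-CSF library lay above every untreated one, by a small margin. The means were 4.68 ± 0.139 with GM-CSF and 4.34 ± 0.0787 without (SD, n = 3 each), a 1.08-fold difference (p = 0.1 in the two-sided exact permutation test, which cannot go lower with 3 against 3).

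The ratio of the agonists, Il1b to Il1a, was 2.42, 2.33 and 2.27 with GM-CSF and 2.33, 2.33 and 2.32 without. These groups overlapped (exact two-sided permutation test, p = 0.8), and the GM-CSF libraries differed by more than the untreated ones (SD 0.0780 with GM-CSF and 0.00415 without, n = 3 each). Over the 3 ratios the Benjamini-Hochberg adjusted p was 0.3 for Il1rn to Il1b, 0.3 for Il1rn to Il1a and 0.8 for Il1b to Il1a. Multiplying a library by a constant leaves these ratios as they are, whereas quantile normalization does not, and the ratios were not tested under it.

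**Figure D3:**
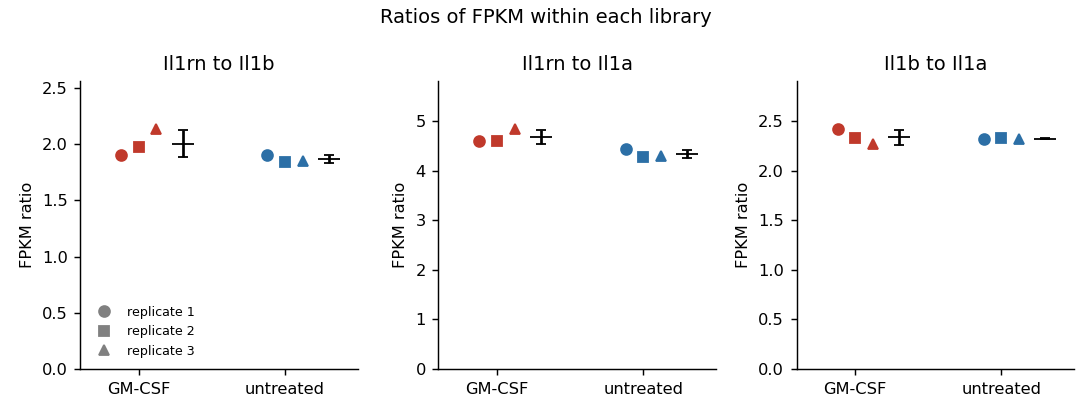
FPKM ratios of Il1rn to Il1b, Il1rn to Il1a and Il1b to Il1a within each library (points, shaped by replicate number), with the mean and SD of 3 libraries and axes from 0. Il1rn is 1.84 to 2.13 times Il1b and 4.28 to 4.84 times Il1a over the 6 libraries.

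The level of these ratios depends on how the deposited FPKM of Il1b is read. The value of Il1b lay above the upper bound of its own deposited interval in all 6 libraries, by a factor of 1.15 to 1.16, and that of Il1r2 likewise by 1.12 to 1.14. Il1a was inside its interval in 5 libraries and just below the lower bound in GM-CSF replicate 2. The same held for Il1rn, with the intervals of its transcripts summed (2637 FPKM against a lower bound of 2645 FPKM in GM-CSF replicate 2). Of all transcripts with at least 0.1 FPKM, 11.3% to 15.5% lay above their interval, depending on the library. With the interval midpoints in place of FPKM, a choice made after seeing the data, the ratio of Il1rn to Il1b was 2.26, 2.36 and 2.54 with GM-CSF and 2.26, 2.18 and 2.20 without.

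Il1r2, the decoy receptor, is on chromosome 1 (40084692 to 40125230). It measured 273.4, 276.8 and 284.8 FPKM with GM-CSF, against 306.0, 281.1 and 256.2 FPKM without. The untreated libraries spread to both sides of the GM-CSF libraries. The log2 fold change was -0.01 as deposited and 0.028 to 0.063 under the 3 other scalings tried, so it has no settled sign, and its 95% interval ran from -0.17 to 0.15 (limma adjusted p = 0.938). Whether its change differed from that of the other members was not tested.

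Il1rap encodes the accessory chain that IL-1R1, and also the IL-33 and IL-36 receptors, need to signal, and lies on chromosome 16 (26581509 to 26730128). It measured 7.47, 7.07 and 7.19 FPKM with GM-CSF, against 4.34, 5.03 and 5.75 FPKM without. The groups did not overlap, and the untreated libraries were the more spread. The log2 fold change was 0.46 with SE 0.09 (limma adjusted p = 0.0166), and the call ended when GM-CSF replicate 1 (adjusted p = 0.0583) or untreated replicate 2 (adjusted p = 0.0545) was left out. Its depth was 0.0157 to 0.0345 megabases of mapped sequence per library, against 1.11 to 2.35 megabases for Il1b.

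Il1rap is made as a membrane-bound form and as a shorter soluble form that lacks the membrane anchor. The transcript of 570 codons, the membrane form, measured 4.71, 4.23 and 4.43 FPKM with GM-CSF and 2.91, 3.00 and 3.45 FPKM without. The transcript of 360 codons, the soluble form, measured 2.76, 2.84 and 2.74 FPKM with GM-CSF and 1.43, 2.03 and 2.31 FPKM without. Both were higher in every GM-CSF library. The soluble form was 38.4% ± 1.63 of the gene's FPKM with GM-CSF and 37.8% ± 4.21 without (SD, n = 3 each), and the shares overlapped. The transcripts of 640 and 685 codons were listed at 0 in 5 of the 6 libraries and did not exceed 0.0200 FPKM in GM-CSF replicate 3.

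Il1r1, the signalling receptor, is 97.25 kilobases from Il1r2 on chromosome 1 (40222480 to 40316201). It was listed at 0, 0 and 0.106 FPKM in GM-CSF replicates 1 to 3 and at 0.0338, 0 and 0.0866 FPKM in untreated replicates 1 to 3. Behind the values above 0 lay 413.7 mapped bases in GM-CSF replicate 3, and 150.4 and 376.1 mapped bases in untreated replicates 1 and 3. A change was not detectable at this depth, and no fold is given. In the libraries where Il1r1 was above 0, the decoy exceeded it 2675-fold in GM-CSF replicate 3, and 9058-fold and 2960-fold in untreated replicates 1 and 3, ratios that rest on very few reads of Il1r1.

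Other receptors of the family follow Il1r1 along chromosome 1, in the order Il1rl2, Il1rl1, Il18r1 and Il18rap. The IL-33 receptor gene Il1rl1 rose to 2.40 FPKM with GM-CSF, against 1.02 FPKM without (log2 fold change 0.76), and the IL-18 receptor chain gene Il18rap to 5.17 FPKM, against 1.91 FPKM without (1.10). Il18r1, the other IL-18 receptor chain gene, fell to 1.30 FPKM with GM-CSF, against 2.14 FPKM without (-0.45), and its call ended under 6 of 15 alternatives. Of 14 other ligands and receptors of the family, 6 were tested, of which 2 rose, 1 fell and 3 did not pass. The share called over all tested genes was 21.9%. Il36a, Il1rapl1 and Il1rapl2 were listed at 0 in all libraries.

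Of 13 genes that process IL-1 or open a path for its release, 10 were tested, of which 2 rose, 3 fell and 5 did not pass. Over all tested genes 21.9% were called (list median log2 fold change -0.09, against -0.05 over all tested genes). Casp8, a caspase that can cut the IL-1 beta precursor, rose to 39.0 FPKM with GM-CSF, against 28.0 FPKM without (log2 fold change 0.46, SE 0.06). Of the genes for calpain catalytic subunits, Capn1 fell to 62.1 FPKM with GM-CSF, against 81.4 FPKM without (-0.38), and Capn2 rose to 88.8 FPKM with GM-CSF, against 73.3 FPKM without (0.28, adjusted p = 0.0128). Aim2, a DNA sensor of the inflammasome, fell to 12.3 FPKM with GM-CSF, against 16.0 FPKM without (-0.36), and its call ended under 6 of 16 alternatives. Casp1, the caspase that cuts the IL-1 beta precursor, averaged 8.95 FPKM with GM-CSF and 10.2 FPKM without and did not pass (adjusted p = 0.246), and Nlrp3 was below the level tested at 0.848 FPKM with GM-CSF and 0.450 FPKM without. Casp1, Nlrp3, Capn2 and the pore-forming Gsdmd, which fell (46.6 FPKM with GM-CSF, 56.7 FPKM without, -0.28), were named after their values were seen.

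Genes that carry the signal from the receptor were expressed although Il1r1 was near 0; many of them also serve Toll-like receptors. Of 18 tested, 5 rose, 2 fell and 11 did not pass (median log2 fold change 0.04), beside 21.9% called over all tested genes. Traf6, the ubiquitin ligase of the pathway, was 24.0, 25.4 and 23.6 FPKM with GM-CSF, against 10.5, 10.9 and 9.41 FPKM without, a log2 fold change of 1.17 with SE 0.07 (limma adjusted p = 8.88e-05). The adaptor gene Myd88 rose to 118.2 FPKM with GM-CSF, against 76.1 FPKM without (0.63, SE 0.04), and the ubiquitin ligase gene Peli1 to 16.0 FPKM, against 10.5 FPKM without (0.57, SE 0.06). The groups of these 3 genes did not overlap.

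Of 9 genes that restrain this signal, 8 were tested, of which 1 rose, 2 fell and 5 did not pass (median log2 fold change -0.09). The share called over all tested genes was 21.9%. Irak3, an inhibitory member of the IRAK family, fell to 20.7 FPKM with GM-CSF, against 31.5 FPKM without (-0.58, SE 0.06), and Tnip1, a partner of the A20 protein, to 13.2 FPKM, against 20.3 FPKM without (-0.58, SE 0.06). Tnfaip3, which encodes A20, rose to 38.8 FPKM with GM-CSF, against 30.5 FPKM without (0.34, SE 0.04). The calls of Tnip1 and Tnfaip3 each ended under 1 of 16 alternatives.

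Of 14 genes that IL-1 is known to induce in other cells, 8 were tested, of which 2 rose, 1 fell and 5 did not pass (median log2 fold change 0.01), beside 21.9% called over all tested genes. The chemokine gene Cxcl3 averaged 1123 FPKM with GM-CSF and 849.7 FPKM without (0.40, adjusted p = 0.0480), the mitochondrial superoxide dismutase gene Sod2 12.6 FPKM with GM-CSF and 10.5 FPKM without (0.24, adjusted p = 0.0350) and the adhesion gene Icam1 42.7 FPKM with GM-CSF and 48.1 FPKM without (-0.17, adjusted p = 0.0445). These calls lay near the threshold and ended under 8, 7 and 12 of 16 alternatives.

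Among 11 factors known to act on Il1b transcription or on its messenger RNA, 10 were tested. Of these, 3 rose, 1 fell and 6 did not pass (median log2 fold change 0.09), beside 21.9% called over all tested genes. Hif1a, the oxygen-regulated factor, rose to 104.3 FPKM with GM-CSF, against 66.1 FPKM without (0.65, SE 0.04). Cebpb, a C/EBP factor, measured 252.0, 246.9 and 175.8 FPKM with GM-CSF, against 145.9, 145.3 and 134.9 FPKM without (0.64, SE 0.14, limma adjusted p = 0.0184, a call that ended under 4 of 16 alternatives). GM-CSF replicate 3 was the lowest of its group for Cebpb, as it was for Il1b, Il1a and Il1rn. The same held for most factors of this list (also Spi1, Irf4, Irf8, Rel, Nfkb1, Zfp36 and Zfp36l1), though not for Hif1a, Rela or Elavl1. Irf8, an interferon regulatory factor, fell to 0.590 FPKM with GM-CSF, against 1.48 FPKM without (-0.63), and its call ended under 3 of 13 alternatives. Nfkb1 and Rela stand in this list and in that of receptor signalling.

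**Figure D4:**
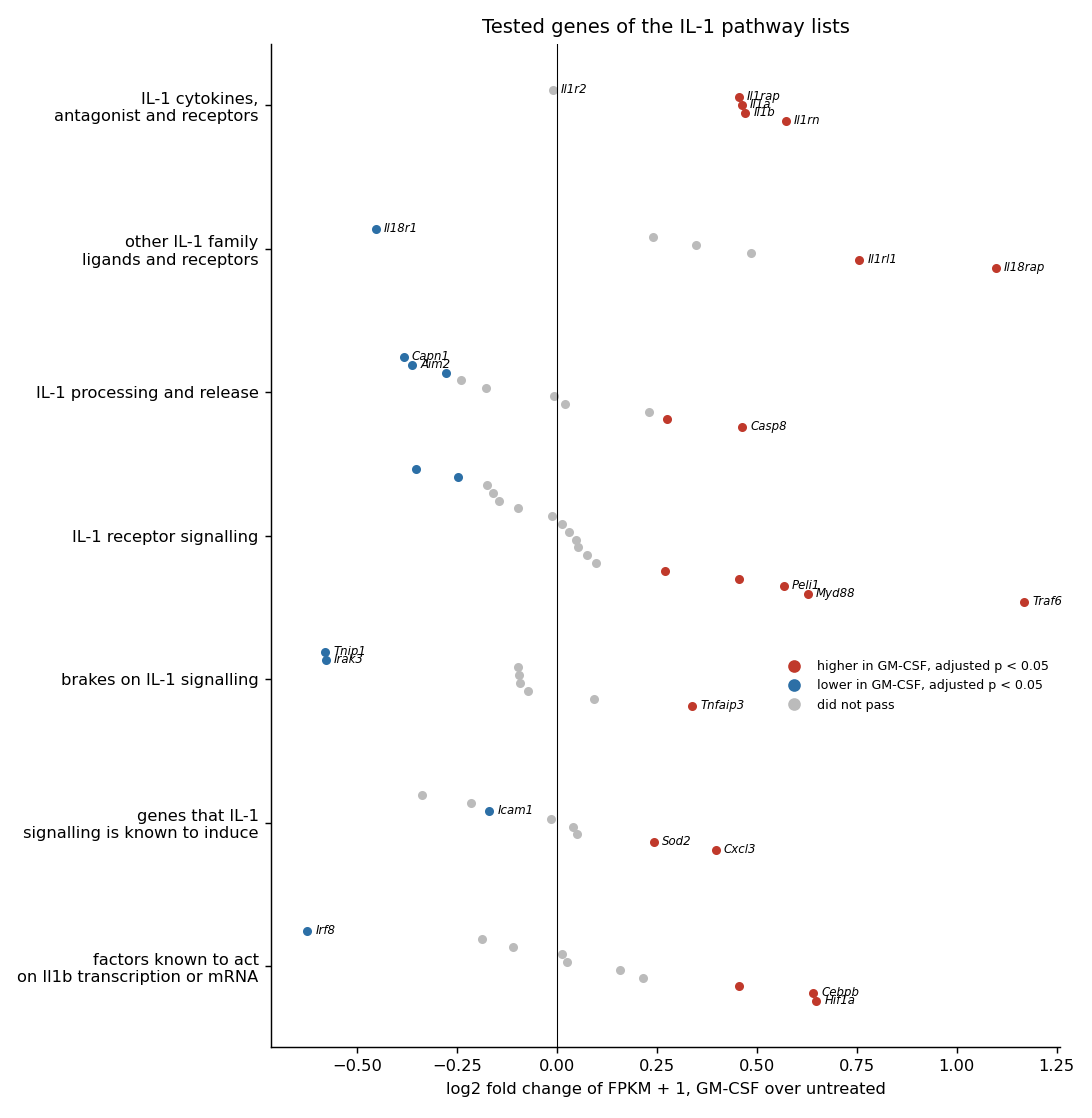
Log2 fold change of FPKM + 1, GM-CSF over untreated, of each tested gene of the IL-1 group and of 6 related lists (points; red, called higher; blue, called lower; grey, did not pass). The IL-1 group holds 4 called rises and no called fall, while each of the 6 other lists holds called genes on both sides of 0.

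The genes whose profile over the 6 libraries was most like that of Il1rn, by the root mean square difference of centred log2(FPKM + 1) among the 5297 genes that averaged 10 FPKM or more, were Ggta1 (0.0218), Capg (0.0322) and Plekhg2 (0.0341). For Il1b they were Ndel1 (0.0325), Furin (0.0360) and Arg2 (0.0368). This measure favours genes with nearly the same log2 fold change, here 0.53 to 0.60 for those like Il1rn and 0.48 to 0.52 for those like Il1b. Shared regulation was not tested. Ggta1 makes a galactose epitope on cell surfaces, Capg caps actin filaments, Furin cuts proproteins and Arg2 is a mitochondrial arginase. Arg2, for example, measured 170.5, 167.7 and 155.7 FPKM with GM-CSF and 113.7, 117.3 and 114.1 FPKM without.

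As deposited, the summed level of each list of markers of other cells was lower with GM-CSF. For the macrophage and dendritic cell list the margin was narrow. The sums were not compared under the other scalings. Of 11 neutrophil markers 10 were listed, with a summed level of 1152 to 1181 FPKM with GM-CSF and 1382 to 1497 FPKM without, mostly Retnlg, and Elane and Camp were at 0 in all libraries. Of the 6 tested, 1 rose (Cxcr2) and 2 fell (S100a8 and Retnlg). Cxcr2 averaged 109.3 FPKM with GM-CSF and 23.8 FPKM without (log2 fold change 2.15), against the direction of the sum. Over all tested genes 7.68% were called higher and 14.2% lower. The 11 macrophage and dendritic cell markers summed to 555.6 to 572.6 FPKM with GM-CSF and 576.6 to 618.9 FPKM without, mostly Itgax and Cd68. C1qa, C1qb and C1qc averaged 0.236, 0.0995 and 0.0660 FPKM with GM-CSF and 0.250, 0.332 and 0.297 FPKM without, so these defining macrophage genes were near 0. Of the 5 tested in this list, 0 rose and 3 fell (Csf1r, Lyz2 and Apoe).

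The sums of the remaining lists did not overlap between the groups either. They were 19.5 to 22.4 FPKM with GM-CSF and 35.1 to 36.6 FPKM without for 10 T, innate lymphoid and NK cell markers, 16.5 to 17.9 FPKM with GM-CSF and 31.1 to 38.6 FPKM without for 7 B and plasma cell markers, and 57.0 to 72.9 FPKM with GM-CSF and 88.4 to 97.4 FPKM without for 10 epithelial markers. For 7 mast cell and basophil markers the sum was 10.3 to 13.1 FPKM with GM-CSF and 14.0 to 22.8 FPKM without, with Tpsb2 and Mcpt8 at 0 in all libraries, and for 8 stromal and endothelial markers 117.7 to 132.5 FPKM with GM-CSF and 151.8 to 168.8 FPKM without, mostly Pecam1. Of the tested markers, 6 of 6 fell in the first of these lists and 5 of 5 in the B and plasma cell list. In the epithelial list 4 of 9 fell, and in the mast cell and basophil list 2 of 3. In the stromal and endothelial list Pdgfra rose and Pecam1 fell. Its 6 other markers were too low to be tested, averaging at most 0.0424 FPKM in either group, so its sum rests on Pecam1 and Pdgfra. Beside these counts, 14.2% of all tested genes were called lower as deposited. The part that other cells had in the IL-1 values was not tested.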

How the data were processed

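Polyadenylated RNA of 6 cultures was measured, 3 with GM-CSF and 3 untreated. RNA was taken with Trizol and libraries made with a stranded mRNA kit, per the labels' protocols. Cufflinks, TopHat, TopHat2, bcl2fastq 1.8.4 and build mm10 are named, without order or settings, per the submitters' processing notes. Each library has a table of 30374 RefSeq transcripts. The authors deposited FPKM, intervals of FPKM and coverage per transcript, per the file headers. The coverage signal deposited by the authors was used for depth and the intervals to place members. No count test was run, since the values are FPKM. For reads that several transcripts share, the sources used here give no rule.

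FPKM were summed per symbol and tested as log2(FPKM + 1) with limma 3.58.1 in R 4.3.3 (trend, two-sided, Benjamini-Hochberg over 10106 genes, threshold 0.05). Fold changes are on that scale, which understates those of low genes. Of these genes, 2212 passed (21.9%), 776 higher and 1436 lower with GM-CSF. Median-of-ratios factors gave 1078 higher and 968 lower, rescaling to the same FPKM sum 791 higher and 913 lower, and quantile normalization 950 higher and 1111 lower. The test was tested on simulated data with independent noise and no scaling difference between the groups. That simulation cannot tell how scaling affects the calls here. The members, lists and tests were chosen with earlier results of these data known. Named genes are the members, up to 3 called genes per list by size of change (where none passed, the 2 most abundant), and the 3 genes most like Il1rn and Il1b. Older symbols were matched through RefSeq synonyms, and 1 of 159 list entries, Ly6g, had no match.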

Additional observations from a re-analysis of the deposited data

How the results depend on the processing

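Il1rn, Il1b and Il1a were called higher with GM-CSF under all 16 alternatives run, with log2 fold changes of 0.54 to 0.87, 0.43 to 0.55 and 0.43 to 0.54. The number of genes called ranged from 1515, without untreated replicate 2, to 2247. Il1r2 was 0.063 with median-of-ratios factors, 0.037 after rescaling to the same FPKM sum, 0.028 with quantile normalization and between -0.075 and 0.052 when 1 library was left out, and no alternative called it. Il1rap lay between 0.37 and 0.54 when 1 library was left out, with adjusted p of 0.0110 to 0.0583. With the highest transcript standing for its gene, the difference in log2 ratio was 0.40 for Il1rn to Il1b, against 0.10, and 0.41 for Il1rn to Il1a, against 0.11, since the intracellular transcript then stands for Il1rn; its level was below that of Il1b in all 6 libraries. Leaving out 1 library gave 0.05 to 0.14 and 0.09 to 0.12, and -0.02 to 0.03 for Il1b to Il1a.

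Whether replicate numbers mark pairs is not known from the labels. Deviations of same-numbered libraries correlated at -0.03, 0.05 and -0.02 over genes, which cannot settle it with 3 libraries a group. With the replicate block 1996 genes were called and no member's call changed (Il1rap adjusted p = 0.0403, Il1rn 0.57 with adjusted p = 0.00334). The block leaves the mean ratio differences as they were (0.10, 0.11 and 0.01). Without the filter Il1r1 had an adjusted p of 0.956. Outliers were not sought in groups of 3. With 3 libraries a group, depth limits Il1rap and Il1r1 most.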
